A study of Capra hircus with 2 samples.

Results

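The miRNAs encoded inside the HOX gene clusters were followed here through miR-10a, miR-10b, miR-196a and miR-196b in the dairy goat (Capra hircus) mammary gland. The 4 members were found by sequence among the small RNA tags of each library. A tag was counted when it started with base 1 of the mature miRNA, or lacked 1 or 2 of its first bases, matched without mismatch, and ran at most 3 bases past its end. They are 4 of 141 mature miRNAs that were recognised in these libraries by the same rule, and their reads made up 86 distinct tags in early involution and 113 in early lactation.

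The study compared 2 stages of the lactation cycle. The early involution library came from gland tissue taken on day 5 after forced weaning in late lactation, day 218 after kids were born, and the early lactation library from day 10. Each library was a single equal pool of RNA from 5 goats, so there was 1 library per stage. No replicate exists, no test between stages was made, and every interval below is a 95% interval that covers counting error only. Involution and the longer time since birth cannot be told apart. Nor can a stage be told from the preparation and sequencing of its 1 library, whether for levels, tag ends or base substitutions. In bulk tissue, fewer cells that carry a miRNA and less of it per cell cannot be told apart either.

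miR-10 and miR-196 are old residents of the HOX clusters, the arrays of homeobox genes that specify position along the body axis in the embryo. Their precursors lie between HOX genes, and messenger RNAs of HOX genes are among their known targets: in the mouse, miR-196a directs cleavage of the Hoxb8 transcript. Adult tissues keep a pattern of HOX and HOX-cluster miRNA expression, and miR-10b is widely studied in human breast cancer cells for its part in invasion. A miRNA finds its targets mainly through its seed, the bases from position 2 to position 8, so miRNAs with the same seed share most predicted targets.

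By the RefSeq annotation of the goat genome (ARS1.2), used for names and gene order only, all 4 members have a gene next to HOX genes. MIR10A lies on chromosome 19 between HOXB5 and HOXB3, and MIR10B lies on chromosome 2 between HOXD8 and HOXD3. MIR196A also lies on chromosome 19, between HOXB13 and HOXB9, and MIR196B lies on chromosome 4 between HOXA9 and HOXA10. Mammals carry further copies of miR-196a, which give the same mature sequence, so its tags are not tied to 1 locus here.

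The mature sequences show how close the paralogues are. Each was read from the deposited tags as the commonest tag with the known start and the conserved length, 23 nt for miR-10 and 22 nt for miR-196. They are printed 5′ to 3′ in DNA letters with the seed in capitals.
miR-10a: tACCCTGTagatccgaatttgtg
miR-10b: tACCCTGTagaaccgaatttgtg
miR-196a: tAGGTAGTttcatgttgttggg
miR-196b: tAGGTAGTttcctgttgttggg

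miR-10a and miR-10b share the seed ACCCTGT, and miR-196a and miR-196b share the seed AGGTAGT. Within each pair the mature sequences differ at 1 base. Counted from 1 at the 5′ end, miR-10b and miR-10a differ by A12T, and miR-196a and miR-196b differ by A12C. Position 12 lies outside the seed, and every count of a paralogue rests on that base. With it in capitals the 4 sequences read as follows.
miR-10a: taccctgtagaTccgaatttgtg
miR-10b: taccctgtagaAccgaatttgtg
miR-196a: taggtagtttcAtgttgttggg
miR-196b: taggtagtttcCtgttgttggg

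At position 12, bases other than those of the paralogues were rare beside the paralogue counts. Among tags that otherwise matched the first 20 bases of miR-10b, the miR-10a base T was present in 2091 tags in early involution and 12795 in early lactation. The other substitutions at that position, C and G, were present in 1 and 5 tags in early involution and in 6 and 9 tags in early lactation. Their mean equalled 0.143% of the miR-10a tags in early involution and 0.0586% in early lactation. For miR-196a read as miR-196b the same comparison gave 0.133% in early involution and 0.0807% in early lactation. A misread to the paralogue base itself cannot be counted, so these shares are a guide and not a bound. Rates differed between positions: A11C of miR-10b, next to position 12, had 71 tags in early involution and 117 in early lactation.

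The library of early involution held 7385833 clean tags and that of early lactation 18031615, a depth 2.44 times greater for early lactation. Levels are tags per 1000000 clean tags of the library, written TPM for tags and not transcripts. miRNA names took 75.7% of the tags in early involution and 82.1% in early lactation.

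All 4 members were less abundant in early involution than in early lactation when scaled to all clean tags, by factors between 1.25 for miR-196a and 2.61 for miR-10a. Their summed level was 3472 TPM in early involution, against 5661 in early lactation, which is 1.63-fold lower. miR-10a was the only member past the size used for a call. That call asked for a difference of at least 2-fold, an interval that lay wholly beyond no difference, and a level of at least 10 TPM in a library. By this rule 1 of the 4 members was lower, 0 were higher and 3 were between. Of the 135 miRNAs that reached the level, 8 were lower, which is 5.93%, and 58 were higher, which is 43%.

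miR-10b, transcribed from the HOXD cluster, was the most abundant member in both libraries. It had 20160 tags in early involution and 75015 in early lactation, which is 2729.5 TPM (interval 2692 to 2768) in early involution and 4160 TPM (4130 to 4190) in early lactation. The level in early involution was 1.52-fold lower (1.501 to 1.548), a log2 ratio of -0.61. By level it ranked 27 of 141 miRNAs in early involution and 17 in early lactation.

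miR-10a, transcribed from the HOXB cluster, had 2498 tags in early involution, or 338 TPM (325 to 352). In early lactation it had 15929 tags, or 883 TPM (870 to 897). It was 2.61-fold lower in early involution (2.50 to 2.73), a log2 ratio of -1.39 (-1.45 to -1.32). Its rank by level was 76 in early involution and 39 in early lactation.

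The miR-196 paralogues were about an order of magnitude below miR-10b. miR-196a had 1746 tags in early involution, 236 TPM (225 to 248), and 5317 tags in early lactation, 295 TPM (287 to 303). Its level in early involution was 1.25-fold lower (1.18 to 1.32), the smallest difference of the 4. miR-196b, from the HOXA cluster, had 1242 tags in early involution, 168 TPM (159 to 178), and 5824 tags in early lactation, 323 TPM (315 to 331). It was 1.92-fold lower in early involution (1.81 to 2.04), just short of the size used for a call.

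**Figure D1:**
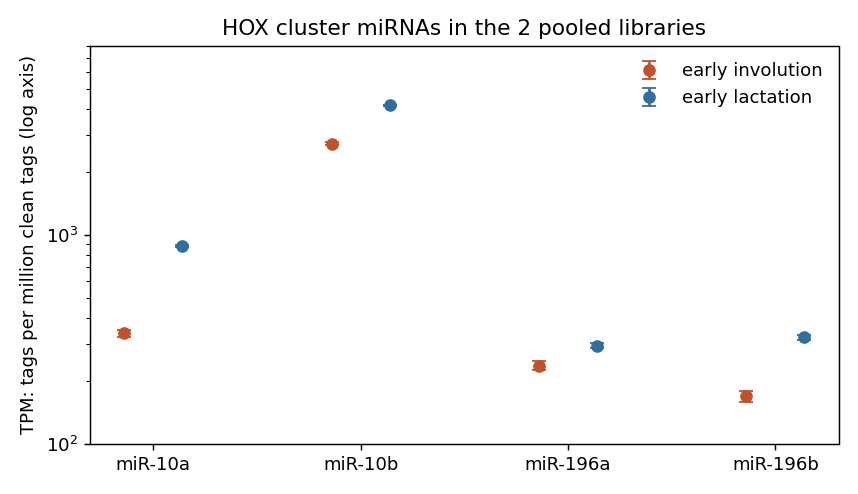
Level of each member in TPM, on a log axis, in the pooled library of early involution (left point of each pair) and of early lactation (right point), with exact Poisson 95% intervals for counting error. Every point of early involution lies below its partner, with the widest gap for miR-10a, at 338 TPM in early involution against 883 in early lactation, and the narrowest for miR-196a, at 236 in early involution against 295 in early lactation.

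The order of the levels changed below miR-10b. In early involution it ran miR-10b, miR-10a, miR-196a and miR-196b, and no neighbours had overlapping intervals. In early lactation it ran miR-10b, miR-10a, miR-196b and miR-196a, again with no overlap of intervals between neighbours. miR-10a exceeded miR-196a by 1.43 times (1.35 to 1.52) in early involution and by 2.996 times (2.904 to 3.091) in early lactation.

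Among the 135 miRNAs ranked from the lowest ratio of early involution to early lactation upward, miR-10a ranked 5, miR-196b 11, miR-10b 22 and miR-196a 33. The median log2 ratio of the 135 was 0.57, so the typical miRNA was higher in early involution on this scale. Relative to that median, which no choice of scaling can alter, the log2 ratio was -1.96 for miR-10a, -1.51 for miR-196b, -1.18 for miR-10b and -0.89 for miR-196a. The number of calls does depend on scaling. With median-of-ratios factors every log2 ratio shifted by -0.71, 45 miRNAs were higher and 34 lower, and all 4 members were among the lower. With TMM factors, the trimmed mean of M values of edgeR, the shift was -0.38, with 48 higher and 20 lower, and miR-10a and miR-196b were among the lower. The direction of all 4 members was the same under each scaling that was run.

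**Figure D2:**
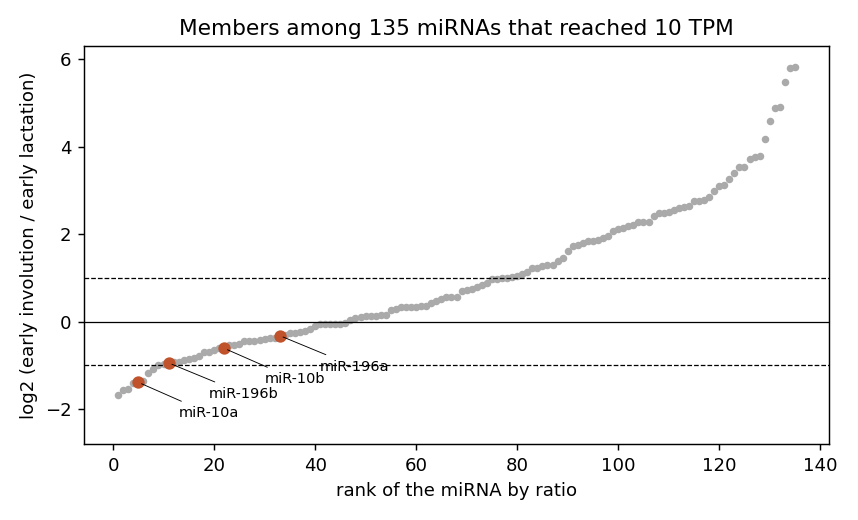
Log2 ratio of early involution to early lactation for 135 miRNAs that reached 10 TPM in a library, ordered by ratio, with the 4 members in colour and dashed lines at a 2-fold difference. The members sit at ranks 5, 11, 22 and 33 from the lowest ratio, and of the 4 only miR-10a lies below the lower dashed line.

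The miRNAs nearest to a member in this ratio were sought among 106 others with at least 100 TPM in a library. The likeness rests on 1 ratio from 2 libraries. For miR-10a, with a log2 ratio of -1.39, they were let-7c at -1.36, miR-452 at -1.54 and miR-148b at -1.56. For miR-10b, at -0.61, they were miR-182 at -0.61, miR-192 at -0.53 and let-7b at -0.53.

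Paralogue ratios need no scaling between libraries, because both counts come from the same library. miR-10b exceeded miR-10a by 8.07 times (7.74 to 8.42) in early involution and by 4.71 times (4.63 to 4.79) in early lactation. miR-10a therefore made up 11.03% of the pair in early involution and 17.5% in early lactation. The miR-10b excess was 1.71 times greater in early involution (1.64 to 1.79).

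Over all tags counted, the predominant paralogue of the miR-196 pair differed between the libraries. miR-196a had 1.41 times (1.31 to 1.51) the tags of miR-196b in early involution, and 0.913 times (0.879 to 0.948) in early lactation. miR-196a was 58.4% of the pair in early involution (56.6 to 60.2%) and 47.7% in early lactation (46.8 to 48.7%). The ratio was 1.54 times greater in early involution (1.42 to 1.67). As the mature sequences of a pair share their seed, the summed level of each pair is also given. For miR-10 the sum was 3068 TPM in early involution and 5044 in early lactation, 1.64-fold lower. That sum includes tags without the first base, whose seed is shifted as described below. They were at 61.6 TPM in early involution and 183 in early lactation for miR-10a, and at 284 and 457 for miR-10b. For miR-196 it was 405 TPM in early involution and 618 in early lactation, 1.53-fold lower.

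**Figure D3:**
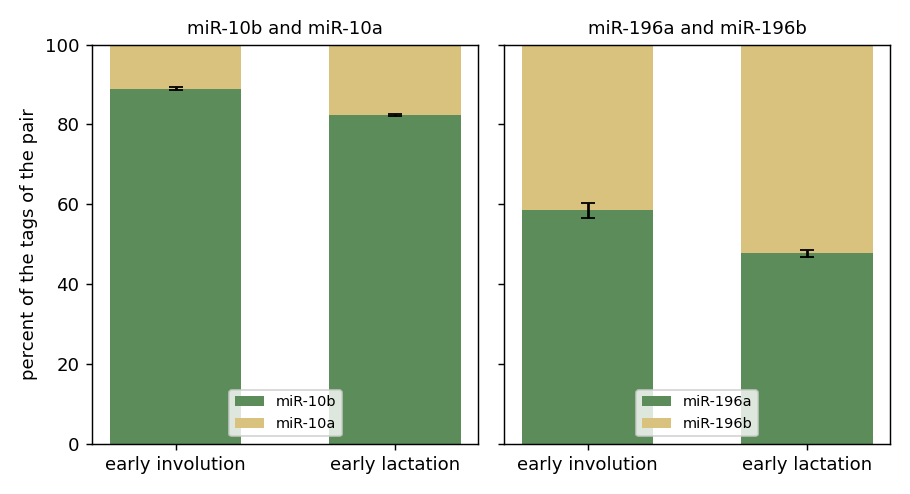
Share of each paralogue among the tags of its pair, in percent, with early involution left of early lactation and Clopper-Pearson 95% intervals at the boundary. miR-10a takes 11.03% of the miR-10 pair in early involution and 17.5% in early lactation, and miR-196a takes 58.4% of the miR-196 pair in early involution and 47.7% in early lactation.

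The miR-99 and miR-100 family is the closest relative of miR-10 by sequence, with a seed that differs, and its genes do not lie in HOX clusters. The commonest tags of its members are shown for comparison with miR-10, with the seed in capitals.
miR-99a: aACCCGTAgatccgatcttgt
miR-99b: cACCCGTAgaaccgaccttgcg
miR-100: aACCCGTAgatccgaacttgt

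This family moved unevenly. miR-99a had 566 TPM in early involution and 266 in early lactation, and was called higher at a log2 ratio of 1.09, a call that was lost at 0.38 with median-of-ratios factors and 0.71 with TMM factors. miR-100 had 207 TPM in early involution and 658 in early lactation, and was called lower at -1.67. miR-99b had 286 TPM in early involution and 567 in early lactation, 1.98-fold lower and between the limits. With median-of-ratios factors miR-99b was called lower at -1.695, and with TMM factors at -1.366. In the tags shown, miR-100 and miR-99a differ by A16T. The ratio of miR-99a to miR-100 was 2.73 in early involution and 0.404 in early lactation, a 6.76-fold difference (6.31 to 7.23) against 1.71-fold for miR-10b over miR-10a.

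The other arms of the precursors were scarcely detected. miR-10a-3p had 7 tags in early involution and 10 in early lactation, and miR-10b-3p had 21 in early involution and 24 in early lactation, all below the level needed for a comparison. miR-615-3p, from a further miRNA gene, in the HOXC cluster, had 2 tags in each library. No tag began as miR-196a-3p or miR-196b-3p were searched for, which allows up to 0.406 TPM in early involution and 0.166 in early lactation, on 3 counts. Of the 9 HOX cluster names searched, 7 had tags and the 4 members alone reached the level for a comparison. Their median log2 ratio was -0.77, against 0.57 for all 135.

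Both miR-10 paralogues had a second 5′ end. Tags that lacked the first base made up 18.2% of miR-10a in early involution (455 of 2498 tags, 16.7 to 19.8%) and 20.7% in early lactation (3292 of 15929, 20.04 to 21.3%). For miR-10b they were 10.4% in early involution (2094 of 20160) and 10.995% in early lactation (8248 of 75015). A 21 nt tag of each is shown because loss of the first base moves the seed, in capitals, by 1 position to CCCTGTA.
miR-10a: aCCCTGTAgatccgaatttgt
miR-10b: aCCCTGTAgaaccgaatttgt

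In miR-196 this form was rare. Tags without the first base numbered 1 in early involution and 13 in early lactation for miR-196a, and 4 in early involution and 3 in early lactation for miR-196b. The largest of these 4 shares was 0.322%, for miR-196b in early involution. Over the 87 miRNAs that had 1000 tags or more in each library, the median share that lacked 1 or 2 first bases was 0.615% in early involution and 0.324% in early lactation. The share exceeded 10% in 10 of the 87 in early involution and in 9 in early lactation, and both miR-10 paralogues were among them in each library. miR-10a ranked 5 from the highest in early involution and 4 in early lactation, and miR-10b ranked 10 in early involution and 9 in early lactation. In the related miR-99a, miR-99b and miR-100, the share was 0.311%, 0.615% and 2.35% in early involution, and 0.229%, 0.724% and 2.26% in early lactation.

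**Figure D4:**
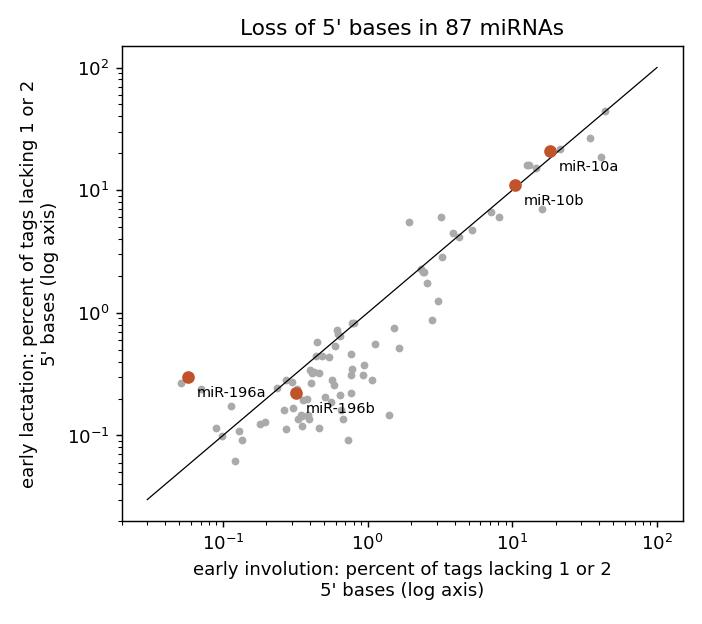
Share of tags that lacked 1 or 2 bases at the 5′ end in early involution (horizontal log axis, percent) and early lactation (vertical log axis, percent) for 87 miRNAs; the line marks equal shares. miR-10a, at 18.3% in early involution and 20.7% in early lactation, and miR-10b, at 10.4% in early involution and 10.998% in early lactation, lie near the line at the upper end, and no miR-196 point exceeds 0.322%.

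Both 5′ forms of miR-10a were lower in early involution, the shifted form somewhat more so. The form that began at base 1 was at 276 TPM in early involution and 701 in early lactation, a ratio of 0.395 (0.376 to 0.414). The form without the first base was at 61.6 TPM in early involution and 183 in early lactation, a ratio of 0.337 (0.305 to 0.372). For miR-10b the ratios were 0.660 for the full form and 0.620 for the shifted form.

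The 5′ end of a miR-10 tag went with its 3′ end. Of miR-10b tags that began at base 1, 15.8% reached the mature end or beyond in early involution and 11.6% in early lactation. Of those that lacked the first base, 64.4% did so in early involution and 57.9% in early lactation. miR-10a gave 28.6% in early involution and 33.5% in early lactation for tags that began at base 1, and for tags that lacked it 69.2% in early involution and 70.3% in early lactation. In both paralogues and both libraries the shifted tags thus reached further at the 3′ end, with no overlap of intervals. miR-10b also exceeded miR-10a less in the shifted form: by 4.602 times (4.157 to 5.104) in early involution and 2.51 times (2.41 to 2.61) in early lactation, against 8.85 times in early involution and 5.29 times in early lactation for tags that began at base 1.

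At the 3′ end the miR-10 tags mostly stopped 1 base short of the conserved length. The most frequent tag of each miR-10 paralogue was the 22 nt form.
miR-10a: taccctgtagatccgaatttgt
miR-10b: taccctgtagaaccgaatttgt

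For miR-10b this tag took 69.9% of the tags in early involution and 75.2% in early lactation, and for miR-10a it took 48.4% in early involution and 42.6% in early lactation. The full 23 nt tag took 10.2% of miR-10b in early involution and 7.20% in early lactation. It took 15.4% of miR-10a in early involution and 20.5% in early lactation. The share of tags that stopped before the mature end was thus 64.0% in early involution and 58.9% in early lactation for miR-10a. For miR-10b it was 79.2% in early involution and 83.3% in early lactation, the opposite order.

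The miR-196 paralogues differed from each other in this respect. miR-196a ended most often 1 base short, in 43.0% of tags in early involution and 49.0% in early lactation. miR-196b ended most often at the mature end, in 51.1% of tags in early involution and 64.4% in early lactation. Tags that ran past the mature end made up 27.9% of miR-196b in early involution (25.5 to 30.5%) and 19.7% in early lactation (18.7 to 20.8%). They made up 16.2% of miR-196a in early involution and 14.2% in early lactation, with intervals that overlapped. The share was also higher in early involution in both miR-10 paralogues, at 14.7% against 11.8% for miR-10a and 7.67% against 6.69% for miR-10b. The same held past the end of the tags shown for the related family. There it was 65.6% against 38.5% for miR-99a, 12.9% against 6.23% for miR-99b and 57.2% against 44.6% for miR-100. A higher share was thus not particular to miR-196b.

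**Figure D5:**
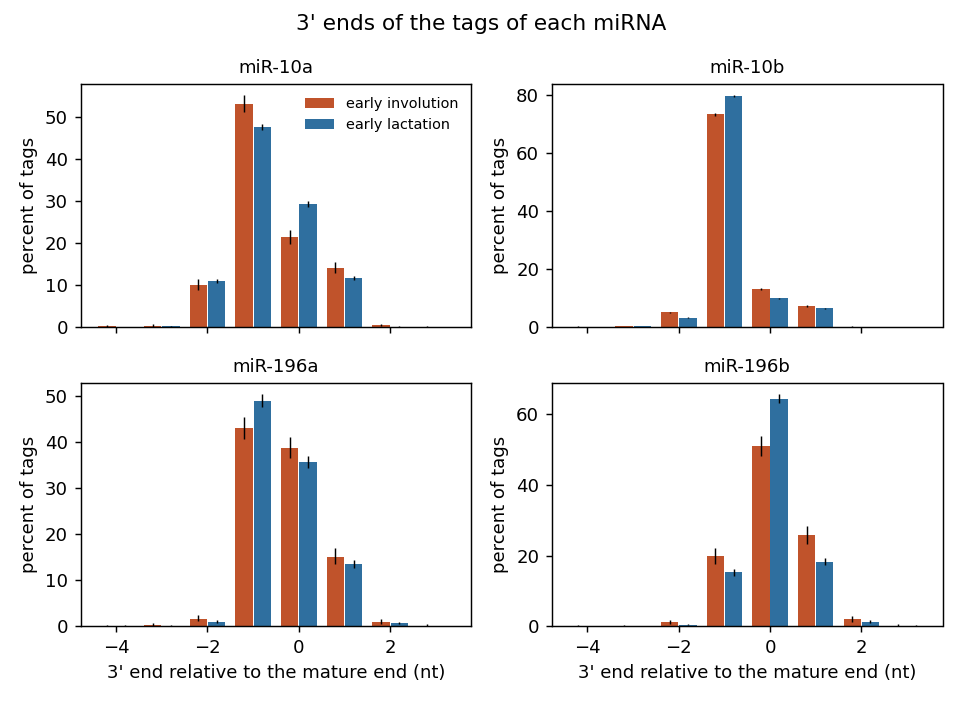
Share of the tags of each member, in percent, by the position of the 3′ end relative to the mature end (0 on the horizontal axis, in nt), with early involution left of early lactation and Clopper-Pearson 95% intervals. miR-10a, miR-10b and miR-196a peak 1 base before the mature end, and miR-196b peaks at it, with 51.1% in early involution and 64.4% in early lactation.

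The difference between the stages was not equal over these ends. miR-10a tags that ended at the mature end had a ratio of early involution to early lactation of 0.279 (0.254 to 0.305), whereas those that ended before it had 0.416 (0.394 to 0.439) and those beyond it 0.476 (0.424 to 0.532). miR-196b had the same order, with 0.413 (0.379 to 0.449) at the mature end, 0.689 (0.598 to 0.792) before it and 0.737 (0.651 to 0.831) beyond it. miR-10b went the other way, with 0.863 (0.825 to 0.902) at the mature end and 0.624 (0.613 to 0.635) before it. miR-196a had 0.870 (0.795 to 0.950) at the mature end and 0.721 (0.665 to 0.781) before it.

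Paralogue ratios therefore varied with the end that was counted. Among tags that ended at the mature end, miR-10b exceeded miR-10a by 4.96 times (4.52 to 5.45) in early involution and 1.60 times (1.54 to 1.66) in early lactation. Among those 1 base shorter the excess was 11.1 times (10.5 to 11.8) in early involution and 7.87 times (7.69 to 8.06) in early lactation. For miR-196a over miR-196b, tags at the mature end gave 1.06 (0.954 to 1.19) in early involution and 0.506 (0.478 to 0.535) in early lactation. Tags 1 base shorter gave 3.05 (2.64 to 3.54) in early involution and 2.93 (2.71 to 3.17) in early lactation, and these intervals overlapped. Tags 1 base longer gave 0.822 (0.696 to 0.971) in early involution and 0.673 (0.611 to 0.740) in early lactation, also with overlap. Among these ends, the intervals of the stages for the miR-196 pair thus lay apart only in tags that ended at the mature end. Overlap does not show that the ratios were equal, and no interval for their change was computed by end. Among tags 1 base shorter miR-196a predominated in both libraries, and among tags 1 base longer miR-196b did.

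Bases past the mature end were mainly A and T. Of miR-10a tags that were 1 base longer, 76.8% ended in A in early involution and 75.5% in early lactation. For miR-10b the share of A was 67.6% in early involution and 61.9% in early lactation, and for miR-196a it was 75.8% in early involution and 74.0% in early lactation. In miR-196b, A took 64.2% in early involution (58.7 to 69.4%) and 48.4% in early lactation (45.3 to 51.4%), and T took 35.8% in early involution and 50.7% in early lactation. No goat precursor sequence was used, so an added base could not be told from the next base of the precursor.

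Within the mature sequence an A in place of the known G or T is no match, so tags that carry it can be seen. Whether that A was added or is a changed or misread base could not be told. Such tags were not counted in the levels above. They were found by requiring a match to the first 18 bases alone, and the most frequent of 3 members are shown with the unmatched A in capitals.
miR-10b: taccctgtagaaccgaatttgA
miR-196a: taggtagtttcatgttgttggA
miR-196b: taggtagtttcctgttgttggA

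The miR-196b form shown had 228 tags in early involution and 911 in early lactation. That of miR-196a had 124 tags in early involution and 397 in early lactation, and that of miR-10b had 249 in early involution and 519 in early lactation. The miR-196b tag with T in the same place had 15 tags in early involution and 40 in early lactation. Unmatched tails made only of A were found in 16.3% of miR-196b tags in early involution (14.4 to 18.2%) and 13.7% in early lactation (12.9 to 14.5%). In miR-196a the share was 7.63% in early involution and 7.65% in early lactation. The miR-10 paralogues carried fewer. miR-10a had 2.53% in early involution (1.95 to 3.21%) and 0.997% in early lactation (0.850 to 1.16%), and miR-10b had 2.24% in early involution (2.04 to 2.45%) and 1.29% in early lactation (1.21 to 1.37%). An unmatched tail of A was thus more frequent in early involution for both miR-10 paralogues, with no overlap of intervals. For miR-196b the share was also higher in early involution, and its intervals overlapped only narrowly, between 14.4% and 14.5%. For miR-196a the 2 shares were alike. Tails were not counted in other miRNAs, so whether the difference is particular to these members was not tested.

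Markers of cell types are read here against the 43% of all 135 miRNAs that were called higher on this scale. All 5 leukocyte markers were called higher in early involution, and their summed level was 1028 TPM in early involution and 231 in early lactation. All 5 remained higher under each scaling run. Of 7 epithelial markers, 3 were higher and 4 between, a share like that of all miRNAs, at 25737 TPM in early involution and 20633 in early lactation. Of 5 stromal and smooth muscle markers, 2 were higher and 3 between, at 320933 TPM in early involution and 310467 in early lactation, of which miR-143 gave 318808 in early involution and 309788 in early lactation. Endothelial markers summed to 7085 in early involution and 7584 in early lactation, with 1 of 2 higher. Erythroid markers summed to 3136 TPM in early involution and 923 in early lactation, with 2 of 3 higher. Skeletal muscle markers summed to 1102 in early involution and 1467 in early lactation, with 1 of 3 higher. The sums for epithelial and stromal markers changed direction with scaling: the ratio of early involution to early lactation was 1.25 and 1.03 with all clean tags, 0.764 and 0.633 with median-of-ratios factors, and 0.959 and 0.795 with TMM factors, epithelial first. The endothelial sum, at a ratio of 0.934, was 1.01 when scaled to tags assigned to miRNAs. No marker was at 0 in either library. None was called lower with all clean tags, but with median-of-ratios factors 2 epithelial, 1 endothelial and 2 skeletal muscle markers were, and with TMM factors 1 skeletal muscle marker was. Their part in the lower levels of the HOX cluster miRNAs was not tested.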

How the data were processed

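The authors deposited raw counts, a list of distinct clean tags with their lengths and numbers of reads. Per the file that the authors deposited with them, low-quality reads, 5′ adaptor contaminants, polyA tags and those shorter than 18 nt were removed, and identical reads were collapsed. Per the labels' protocols, RNA of 18 to 30 nt was selected, ligated to adaptors and amplified, yet tags reached 44 nt. PCR copies carry no molecular identifiers. Whether an aligner or genome build was used is not given in the sources used here.

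A table of reference miRNA sequences had been planned for. None was used, so 143 names were searched by the first 8 bases and single distinguishing bases, written from general knowledge, and mature sequences were read from the tags of 20 to 24 nt. Of these names 141 had tags. Tags that fitted several names, 0.0643% in early involution and 0.0339% in early lactation, were set aside; no member lost a tag. Named miRNAs are the members, their opposite arms, miR-615, the miR-99 family, marker lists, and the 3 miRNAs nearest to miR-10a and to miR-10b; members, keys and lists were chosen with earlier results of these data known.

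Intervals are exact Poisson for a level, Clopper-Pearson for a share, conditional Clopper-Pearson for a ratio of counts and conditional exact for a ratio of ratios. On counts simulated for 135 miRNAs with these totals, 95.1% of intervals held the true ratio, all 4-fold differences were called, and 0.08% of miRNAs at 1.5-fold or less were. Only counting error was simulated. Alternatives covered scaling, assignment, depth, the filter on level and misread bases. Tools were Python 3.11.15 with numpy 2.4.6, scipy 1.17.1 and matplotlib 3.10.9, and R 4.3.3 with edgeR 4.0.16 for TMM factors alone.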

Additional observations from a re-analysis of the deposited data

How the results depend on the processing

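No paired analysis was possible because each stage has 1 pooled library. All 4 members were lower in early involution under every alternative run, and no paralogue ratio changed direction. In the order miR-10a, miR-10b, miR-196a and miR-196b, the log2 ratios of early involution to early lactation were -1.27, -0.49, -0.20 and -0.82 with scaling to tags assigned to miRNAs, -2.09, -1.32, -1.03 and -1.65 with median-of-ratios factors, -1.77, -0.99, -0.70 and -1.32 with TMM factors, and -1.80, -0.11, -0.20 and -1.27 for tags identical to the mature sequence. Identical tags hold only a single 3′ form, and the ratios of these forms differed as given above. The log2 ratio of miR-10b to miR-10a was 2.41 in early involution and 0.72 in early lactation for identical tags, and 3.15 in early involution and 2.40 in early lactation for tags that start at base 1. That of miR-196a to miR-196b was 0.088 in early involution and -0.99 in early lactation for identical tags. Both by the first 18 bases and with 1 mismatch allowed it was 0.34 in early involution and -0.22 in early lactation. It was -0.070 for early lactation thinned to the depth of early involution. The -0.070 rests on 2198 tags of miR-196a and 2307 of miR-196b, and the 0.088 on 675 and 635. No interval was computed for either, so neither is shown to differ from equality. The number of miRNAs called lower was 34 with median-of-ratios factors, 20 with TMM factors and 14 for identical tags, against 8; the number called higher stayed within 1.5 times. By the first 18 bases, the share that matched only to before the mature end was 79.8% for miR-10b in early involution, 49.8% in early involution and 54.7% in early lactation for miR-196a, and 34.8% in early involution and 28.3% in early lactation for miR-196b. Subtraction of the mean of the other bases at position 12 moved no paralogue ratio beyond its interval. For miR-196 this subtraction was added after the data had been seen. For 42 other miRNAs, 244 of 420 recomputed ratios stayed within the counting interval and 176 did not. The sign changed in 11, in 9 of them with both intervals clear of 0, namely 5 with median-of-ratios factors, 2 with TMM factors and 1 each for identical tags and the first 18 bases. These 9 belong to let-7a, miR-143, miR-199a-3p, miR-199a-5p, miR-200a and miR-200b, none of them called. Depth limits the shifted forms of miR-196 and the opposite arms, at 24 tags or fewer, and the spread between goats is unknown.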

Other observations

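miR-10a also had tags with an extra base before its first base. Tags that hold bases 5 to 16 of miR-10a numbered 2636 in early involution and 16453 in early lactation. Extra bases at the 5′ end were present in 42 of them in early involution (1.59%) and 195 in early lactation (1.19%). No match was asked of the bases before base 5 in this count. Tags with 1 extra base numbered 34 in early involution and 186 in early lactation. For miR-10b, extra bases were present in 43 of 20958 tags in early involution (0.205%) and 43 of 76766 in early lactation (0.0560%). Those with 1 extra base numbered 29 in early involution and 18 in early lactation, and those with 4 or more numbered 5 and 19. No precursor sequence was used, so whether the extra base belongs to the precursor is not known here.

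The most frequent internal base substitution of miR-10b other than the one that gives miR-10a was A11C, next to the base that separates the paralogues. It had 71 tags in early involution, 0.384 per 100 matching tags, and 117 in early lactation, 0.173 per 100. In miR-10a the same substitution had 12 tags in early involution, 0.574 per 100, and 34 in early lactation, 0.266 per 100. It was more frequent in early involution in both paralogues, and it was chosen for mention after its values were seen. Other substitutions of miR-10b went either way between the libraries. C4T was at 0.0702 per 100 in early involution and 0.0310 in early lactation, and C3A at 0.0108 and 0.0605. Whether the difference is particular to A11C was not tested.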
